A study of Mus musculus with 6 samples.

Results

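Complement is a set of plasma and tissue proteins that cut and activate one another in cascades. The classical pathway starts when C1q binds antibody or damaged cells, and of its proteases C1r and C1s the latter cleaves C4 and C2. The alternative pathway runs through factor B and C3 and amplifies the others. All routes meet at C3, whose fragments coat targets and, as C3a, signal to cells through the receptor C3ar1. The liver makes most plasma complement, but macrophages and fibroblasts of other tissues make C1q, C1r, C1s, C4, C3 and factor B locally, and several complement genes are known to respond to interferons.

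The 9 genes described here are factor B (Cfb), C2, C3, C4b, the C1 inhibitor gene Serping1, the 3 chains of C1q (C1qa, C1qb and C1qc) and C3ar1, out of 18193 genes named by a single symbol on the array. Their probe sets, the sets of oligonucleotides that measure one transcript, were taken by gene symbol, which gave 14 probe sets. The probe set of C4b is annotated to C4a and C4b together, near-identical genes of the same chromosome in the mouse, and is called C4a/C4b below. No probe set carried the symbol C3 in the annotation used here, so 8 of the 9 genes had values and all 8 passed the filter on dim signals. The genes were chosen with the Trex1 KO and Trex1 WT values of these same arrays known. The differences below therefore describe them, and the limma calls beside them are no independent support.

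The samples were heart ventricles of 3 Trex1 knockout mice that also lacked Rag2 (Trex1 KO) and of 3 mice with wild-type Trex1 that lacked Rag2 as well (Trex1 WT), each on 1 array. TREX1 is an exonuclease that degrades cytosolic DNA, and animals without Rag2 form no mature T or B cells and so make no antibody. Each Trex1 KO animal had a Trex1 WT littermate, giving pairs A, B and C. The sources used here give neither ages nor the design of the Trex1 allele, and nothing in the labels restricts the deletion to 1 cell type.

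The labels were checked on Trex1 itself. Its probe set, shared with Atrip, had signals of 9.45, 20.6 and 34.2 in the Trex1 KO animals A, B and C, against 714, 340 and 887 in the Trex1 WT animals A, B and C. The 8 cardiomyocyte markers had summed signals of 319047 to 352827 in Trex1 KO and 290587 to 370178 in Trex1 WT, so the tissue carried its labelled identity. RNA quality moved with genotype: the Actb 3′ to 5′ ratio was 1.60 to 1.68 in Trex1 KO and 1.80 to 2.29 in Trex1 WT. The 18S signal was 798 to 2834 in Trex1 KO and 924 to 13708 in Trex1 WT. The pair C littermates were closest on both measures, at 1.68 and 1.80 for the Actb ratio and at 798 and 924 for 18S in Trex1 KO and Trex1 WT. Across the array 40 of 12811 tested genes, or 0.312%, were higher in Trex1 KO past an adjusted p of 0.05 and 5, or 0.039%, were lower.

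Cfb was the 1 complement gene that passed the test. It encodes factor B, whose protease fragment forms the alternative pathway's C3-cleaving enzyme. Its signals were 593, 907 and 686.1 in the Trex1 KO animals A, B and C, against 142, 87.7 and 57.3 in the Trex1 WT animals A, B and C. The lowest knockout value was thus above the highest wild-type value, and Trex1 WT C lay under 69.8, the highest signal of the 27 unspiked bacterial control probe sets. The log2 difference was 2.79 (95% interval 2.16 to 3.41, SE 0.28), a 6.90-fold difference on the log2(signal + 16) scale, with a limma Benjamini-Hochberg adjusted p of 0.00188. Of 12811 tested genes it ranked in place 5 by the size of the increase.

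The increase was present in each litter but differed in size. The log2 difference of Cfb between littermates was 1.95 in pair A, 3.15 in pair B and 3.26 in pair C. The smaller value of pair A came with both the lowest knockout signal and the highest wild-type signal. Adding the Actb ratio to the model gave a log2 difference of 3.24 with a limma adjusted p of 0.0962, so the call was lost. The SE in that model was 0.49, against 0.28 without the ratio. The part of RNA quality in the Cfb difference was not tested. The differences with pseudocounts of 1 and 64 were 2.99 and 2.33.

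**Figure D1:**
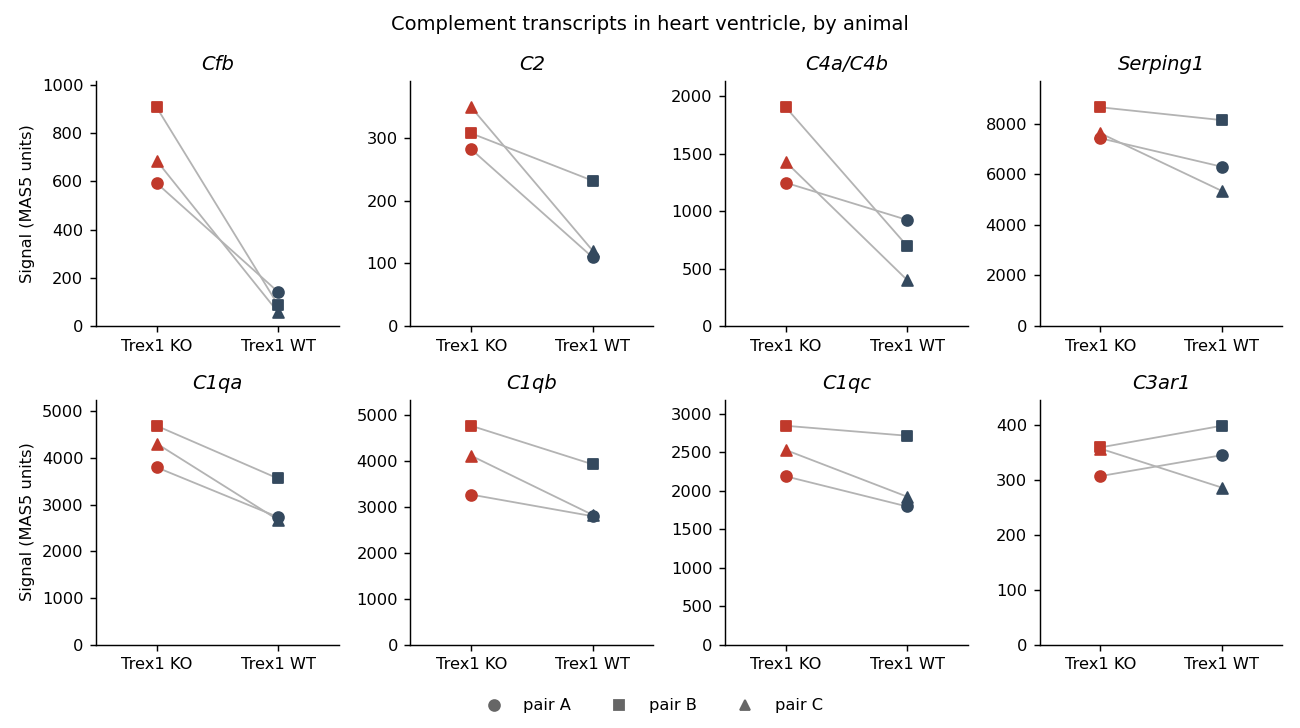
Signal (MAS5 units, linear axes from 0) of the 8 measured complement genes in each animal, with Trex1 KO left and Trex1 WT right in every panel and grey lines joining littermates of pairs A, B and C. Cfb runs from 593 to 907 in Trex1 KO against 57.3 to 142 in Trex1 WT, while the 2 groups of Serping1, C1qb, C1qc and C3ar1 overlap.

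C2, the next protein-coding gene after Cfb, was higher in all 3 knockouts without passing the test. C2 is the classical and lectin pathway's counterpart of factor B, and in the RefSeq gene table (assembly GRCm38.p6) the 2 are neighbours on chromosome 17 with only Mir6972 listed between them. Its brightest probe set read 282, 308 and 350 in the Trex1 KO animals A, B and C, against 110, 232 and 121 in the Trex1 WT animals A, B and C. The groups did not overlap, and Trex1 WT B was closest to the knockouts. The log2 difference was 1.02 (95% interval 0.43 to 1.61, limma adjusted p = 0.433). Without Trex1 WT B it was 1.32, and C2 then passed with a limma adjusted p of 0.0317. Leaving out any other single animal gave 0.83 to 1.09, with limma adjusted p-values of 0.401 to 0.999.

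The other C2 probe sets gave similar values. One read 154, 246 and 324 in the Trex1 KO animals A, B and C, against 92.6, 128 and 106 in the Trex1 WT animals A, B and C, a log2 difference of 0.997 (limma adjusted p = 0.517). The third read 171, 269 and 211 in the Trex1 KO animals A, B and C, against 91.8, 128 and 35.2 in the Trex1 WT animals A, B and C, a log2 difference of 1.31 (limma adjusted p = 0.534). All 3 probe sets thus separated the genotypes. They measure the same 6 animals and are not replicates of one another.

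The genes flanking this neighbouring pair did not follow it. Nelfe, a subunit of the negative elongation factor, lies on the other side of Cfb and averaged 517 ± 18.6 in Trex1 KO and 542 ± 37.8 in Trex1 WT (SD, n = 3 each, log2 difference -0.07, limma adjusted p = 0.977). Zbtb12, beyond C2, averaged 206 ± 39.6 in Trex1 KO and 212 ± 46.4 in Trex1 WT (SD, n = 3 each, log2 difference -0.03, limma adjusted p = 0.996). Both were chosen by position alone, outside the rule for named genes.

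The C4a/C4b probe set was also higher in every knockout without passing. C4 is the protein whose large fragment attaches to targets and binds C2, and in the mouse C4a encodes the sex-limited protein, so these signals cannot be split between the genes. It read 1248, 1905 and 1429 in the Trex1 KO animals A, B and C, against 924, 697 and 400.3 in the Trex1 WT animals A, B and C. No knockout value lay within the wild-type range. The log2 difference was 1.22 (95% interval 0.62 to 1.81, SE 0.27, limma adjusted p = 0.223, or 0.0763 with littermates as a block). By littermate pair it was 0.43, 1.43 and 1.80 in A, B and C.

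Cfb and C4a/C4b ranked the animals in the same order. In each, Trex1 KO B was the highest knockout and Trex1 KO A the lowest, and Trex1 WT A was the highest wild type and Trex1 WT C the lowest. The brightest C2 probe set did not share this order, since Trex1 KO C and Trex1 WT B were its highest animals.

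**Figure D2:**
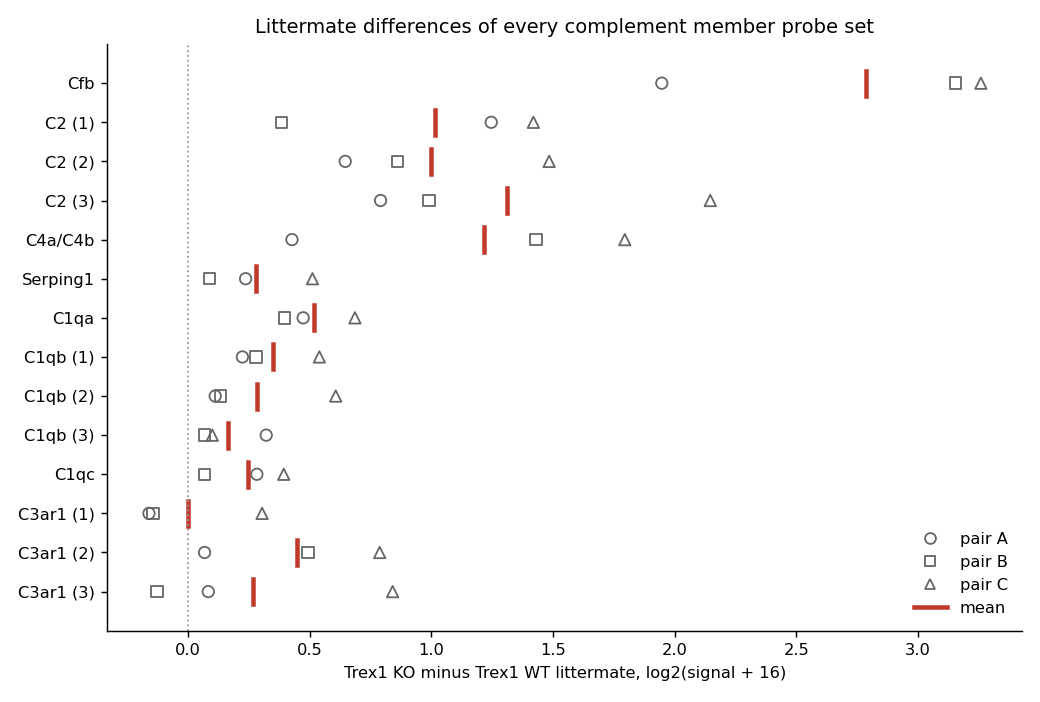
Difference of each Trex1 KO animal from its Trex1 WT littermate on the log2(signal + 16) scale for the 14 member probe sets, with open symbols for pairs A, B and C and a red bar for their mean. Numbers in brackets count the probe sets of a gene from bright to dim. Cfb lies at 1.95 to 3.26, the 3 C2 probe sets average 1.02, 0.997 and 1.31, and the C1q and Serping1 probe sets average between 0.16 and 0.52.

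The 3 chains of C1q had small positive differences, and none passed the test. C1qa, C1qb and C1qc encode the polypeptides that assemble into C1q, the recognition molecule of the classical pathway, which tissue macrophages make. The genes follow one another on chromosome 4 of GRCm38.p6 in the order C1qb, C1qc and C1qa.

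Of the 9 genes, 4 had an entry in the RefSeq promoter table (GRCm38.p6), and 3 of those had signals. The 250 bases before the start are shown for C1qb and C1qc because these neighbours had like patterns over the animals. Capitals mark matches to a loose NF-kB motif (GGG, any 5 bases, then CC) on either strand, and the 2 matches in each window overlap.
C1qb (chr4:136886201-136886450, minus strand): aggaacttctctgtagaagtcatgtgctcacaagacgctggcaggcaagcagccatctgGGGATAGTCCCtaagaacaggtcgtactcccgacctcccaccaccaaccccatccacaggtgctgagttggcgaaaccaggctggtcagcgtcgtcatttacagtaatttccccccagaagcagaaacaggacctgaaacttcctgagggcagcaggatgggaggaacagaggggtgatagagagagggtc
C1qc (chr4:136892915-136893164, minus strand): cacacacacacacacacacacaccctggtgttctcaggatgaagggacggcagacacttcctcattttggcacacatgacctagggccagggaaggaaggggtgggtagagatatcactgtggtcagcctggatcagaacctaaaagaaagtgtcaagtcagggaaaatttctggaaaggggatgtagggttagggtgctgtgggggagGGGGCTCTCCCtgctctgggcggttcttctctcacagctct

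That loose motif is common: 45.8% of the 32851 promoter windows of this length held it, including that of C3ar1. The interferon-stimulated response element, searched as GAAA, any 2 bases, then GAAA on both strands, was in 2.98% of all windows. The gamma-activated site, searched as TTCNNNGAA on both strands, was in 7.02%. The windows of C1qb, C1qc and C3ar1 held neither, which says only that these letters are not in these windows.

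C1qa separated the genotypes, and C1qb and C1qc did not. C1qa read 3797, 4688 and 4308 in the Trex1 KO animals A, B and C, against 2731, 3558 and 2672 in the Trex1 WT animals A, B and C. The log2 difference was 0.52 (95% interval 0.22 to 0.82, limma adjusted p = 0.416, or 0.0597 with littermates as a block). C1qb read 3273, 4775 and 4121 in the Trex1 KO animals A, B and C, against 2801, 3934 and 2830 in the Trex1 WT animals A, B and C. Trex1 WT B was above Trex1 KO A for this chain.

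C1qc read 2187, 2844 and 2529 in the Trex1 KO animals A, B and C, against 1795, 2715 and 1922 in the Trex1 WT animals A, B and C, and here too Trex1 WT B exceeded Trex1 KO A. The log2 differences were 0.35 for C1qb (95% interval -0.03 to 0.72) and 0.25 for C1qc (95% interval -0.12 to 0.61), with limma adjusted p-values of 0.942 and 0.955. The dimmer C1qb probe sets gave 0.28 and 0.16. Leaving out single animals gave 0.22 to 0.51 for C1qb and 0.13 to 0.43 for C1qc, the highest in each without Trex1 WT B. The lowest was without Trex1 KO B for C1qb and without Trex1 WT A for C1qc, which was 0.16 without Trex1 KO B. For all 3 chains the animals of pair B were the highest of their genotype, and each knockout was above its own littermate. In this fit, which leaves out the litters, an increase of the size of C1qa, or none, is within the intervals of C1qb and C1qc. With littermates as a block their SEs were 0.092 and 0.095, against 0.17 and 0.16 without it. Unadjusted limma p-values with the block were 0.00472 and 0.0297, and the adjusted ones 0.314 and 0.543.

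Macrophage markers are given beside C1q because macrophages make it. In bulk tissue, more cells of a type and more RNA per cell cannot be told apart. Of 12 macrophage markers, 0 passed in either direction in limma, 1 was higher and 1 lower at an unadjusted p under 0.05, and the median log2 difference was 0.23, against 0.35 over the C1q chains and -0.02 over all tested genes. The summed signal of the 12 markers was 15614 to 20836 in Trex1 KO and 13000 to 21075 in Trex1 WT, and none had a mean at or below the highest bacterial control. The summed signal of the 3 C1q chains was 9257 to 12307 in Trex1 KO and 7327 to 10207 in Trex1 WT.

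The markers did not move as one. Csf1r, the receptor for the main macrophage growth factor, averaged 4225 in Trex1 KO and 4746 in Trex1 WT, a log2 difference of -0.15. Adgre1, the F4/80 antigen, averaged 937 in Trex1 KO and 723 in Trex1 WT, a log2 difference of 0.37. Fcgr1, a high-affinity Fc receptor, had a difference of 0.73 and Cd163, a haemoglobin scavenger receptor, of -1.38 (adjusted p in limma 0.684 and 0.0504). Cd163 passed with littermates as a block (limma adjusted p = 0.00855). As with C1q, Trex1 WT B had the highest wild-type signal for 11 of the 12 markers. The part of macrophage number in the C1q values was not tested.

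Monocyte and neutrophil markers had a larger median difference than the macrophage markers, and none passed. Of 8 listed, 5 had a probe set and 4 were tested, with a median log2 difference of 0.80 and pair medians of -0.47, 1.31 and 1.16 in A, B and C. S100a8 and S100a9, which encode the subunits of calprotectin, had differences of 0.79 and 0.89 with overlapping groups (adjusted p in limma 0.943 and 0.927). Csf3r, the receptor for granulocyte colony-stimulating factor, read 84.0, 84.6 and 73.2 in the Trex1 KO animals A, B and C, against 64.1, 28.1 and 30.6 in the Trex1 WT animals A, B and C. Its groups did not overlap, the wild-type values were all under the highest bacterial control, and the log2 difference was 0.82 (limma adjusted p = 0.901). Ccr2, a chemokine receptor of monocytes, had a difference of -0.09, and Cxcr2 was too dim to test. The summed signal of the list was 576 to 1941 in Trex1 KO and 569 to 930 in Trex1 WT. Pair A had the lowest difference for this list, as for Cfb, C4a/C4b and the macrophage markers (pair medians 0.02, 0.06 and 0.44 in A, B and C). The interferon-induced comparison genes also had their lowest median in pair A (2.65, 2.97 and 2.82 in A, B and C). For C1qa, C1qc, Serping1 and the brightest C2 probe set the lowest was pair B, so the pair A pattern is not particular to these markers. The part of monocytes and neutrophils in the complement values was not tested.

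**Figure D3:**
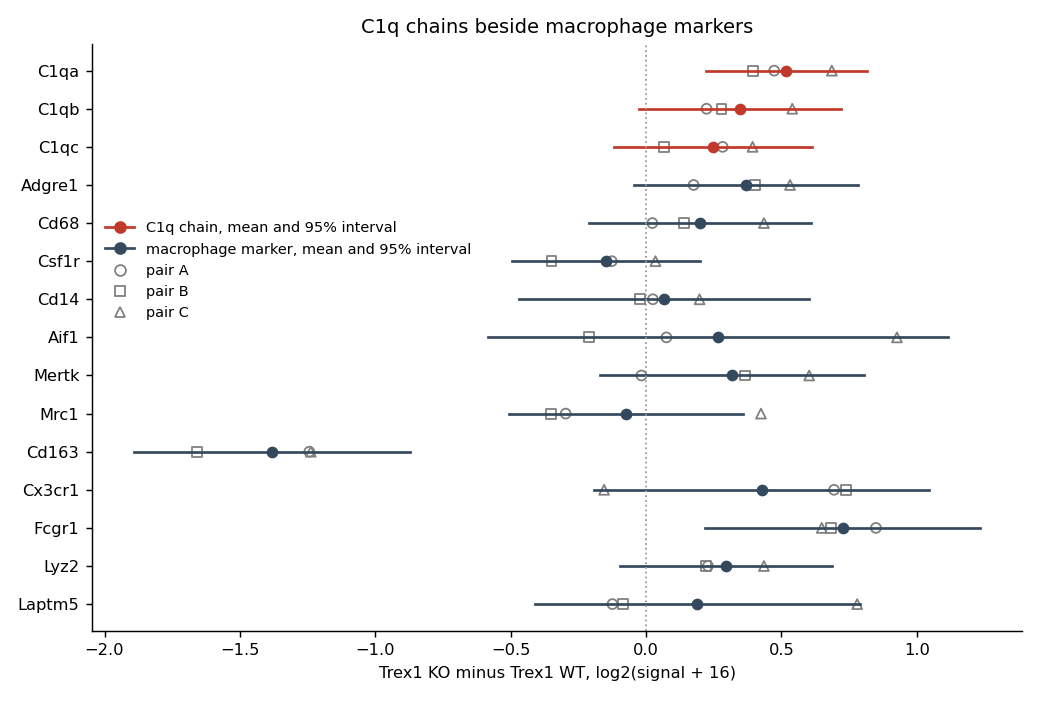
Trex1 KO minus Trex1 WT differences on the log2(signal + 16) scale for the 3 C1q chains (red) and 12 macrophage markers (blue), with filled points for the mean, lines for the 95% interval and open symbols for littermate pairs A, B and C. The C1q chains lie at 0.25 to 0.52, and the markers spread from -1.38 (Cd163) to 0.73 (Fcgr1).

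Serping1 and C3ar1, an inhibitor and a receptor, did not pass the test. Serping1 encodes the C1 inhibitor, which inactivates C1r, C1s and the lectin pathway proteases. It read 7429, 8655 and 7627 in the Trex1 KO animals A, B and C, against 6304, 8147 and 5346 in the Trex1 WT animals A, B and C. Trex1 WT B lay inside the knockout range. The log2 difference was 0.28 (95% interval -0.05 to 0.60, limma adjusted p = 0.955), positive in each pair but only 0.09 in pair B. Adding the Actb ratio to the model gave 0.74, leaving out Trex1 WT B gave 0.44 and leaving out Trex1 WT C gave 0.14, and it did not pass in any of these.

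C3ar1, the receptor for C3a on myeloid cells, depended on the probe set. Its brightest probe set read 307, 360 and 357 in the Trex1 KO animals A, B and C, against 345, 399 and 286 in the Trex1 WT animals A, B and C, a log2 difference of 0.00 (95% interval -0.38 to 0.38). A second probe set separated the groups, at 266, 368 and 439 in the Trex1 KO animals A, B and C, against 253, 257 and 247 in the Trex1 WT animals A, B and C, a log2 difference of 0.45 (limma adjusted p = 0.908). The dimmest gave 0.27 with overlapping groups. No direction can be given for this gene.

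Over the 8 measured genes, 1 was called higher and 0 lower in limma, beside 0.312% and 0.039% of all tested genes. With littermates as a block the counts were again 1 and 0, beside 0.531% and 0.0937%. The knockouts lay wholly above the wild types for 4 of them (Cfb, C2, C4a/C4b and C1qa), beside 5.03% of all tested genes, and wholly below for 0, beside 5.83%. The knockout was above its littermate in all 3 pairs for 7 of the 8, beside 13.1%. The median log2 difference was 0.43, against -0.02 over all tested genes. Since these genes were picked on this contrast, nothing is read from these counts.

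The rest of the complement system, 46 other genes taken as a list by role, held none that passed. Of these, 36 had a probe set of their own and 24 were bright enough to test. In limma 0 were higher and 0 lower, beside 0.312% and 0.039% of all tested genes. At an unadjusted p under 0.05, 3 were higher and 1 lower, where 3.03% and 2.26% of all tested genes were. The median log2 difference was 0.05, with 15 above 0 and 9 below.

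The alternative pathway had 1 tested gene beside Cfb, the properdin gene Cfp, whose product stabilises the C3-cleaving enzyme. Its brighter probe set read 236, 429 and 383 in the Trex1 KO animals A, B and C, against 130, 175 and 187 in the Trex1 WT animals A, B and C. The groups did not overlap, and the log2 difference was 0.99 (95% interval 0.44 to 1.54, limma adjusted p = 0.361, or 0.0731 with littermates as a block). Its dimmer probe set pointed the other way, with 80.0, 75.5 and 157 in the Trex1 KO animals A, B and C, against 126, 161 and 229 in the Trex1 WT animals A, B and C (log2 difference -0.67, limma adjusted p = 0.927). The 2 probe sets of Cfp thus disagreed in sign in every pair.

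Genes of the classical proteases lay near the C1q chains. C1s1, the brighter of them, averaged 1064 ± 175 in Trex1 KO and 864 ± 163 in Trex1 WT (SD, n = 3 each), a log2 difference of 0.30, and C1ra had 0.32 (limma adjusted p = 0.955 for each). In the lectin pathway, where collectins, ficolins and MASP proteases act, the 6 tested genes had a median log2 difference of -0.06. Its brightest, Colec11, a collectin, averaged 2322 ± 192 in Trex1 KO and 2478 ± 430 in Trex1 WT (SD, n = 3 each, log2 difference -0.08, limma adjusted p = 0.972).

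The terminal pathway, whose products form the membrane attack complex, was mostly near background. Hc (which encodes C5), C6, C8a and C8b all had mean signals at or below the highest bacterial control, and a change can be missed there. The brighter of the 2 tested genes, C8g, averaged 142 ± 41.9 in Trex1 KO and 138 ± 25.9 in Trex1 WT (SD, n = 3 each, log2 difference 0.02, limma adjusted p = 0.998).

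Of the 7 regulators tested beside Serping1, none passed, and 4 had differences above 0 and 3 below. Clu, which encodes the fluid-phase inhibitor clusterin, averaged 21924 ± 797 in Trex1 KO and 19526 ± 1665 in Trex1 WT (SD, n = 3 each, log2 difference 0.17, limma adjusted p = 0.955). Vtn, named after its values were seen, encodes vitronectin, which blocks terminal complex insertion. Its log2 difference was 0.38 (95% interval 0.04 to 0.73, limma adjusted p = 0.881). The membrane regulators Cd55, Cd59a and Cr1l (Crry) had differences of -0.16, -0.04 and 0.06, and Cd46 had 0.49 with a 95% interval of -0.32 to 1.31. Dimmer tested probe sets with a single symbol gave 0.17 and -0.03 for Cd55, -0.03 for Cd59a and -0.29 for Cr1l. Cfi, which encodes the protease factor I, was lower in the knockout of all 3 pairs, with a log2 difference of -0.41 (95% interval -1.10 to 0.28, limma adjusted p = 0.955).

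Of the 6 receptor genes tested beside C3ar1, 5 had differences above 0 and 1, Vsig4, was below. The brightest, Cd93, averaged 5580 ± 697 in Trex1 KO and 5101 ± 468 in Trex1 WT (SD, n = 3 each, log2 difference 0.13, limma adjusted p = 0.959). Dimmer tested probe sets of Cd93 gave -0.11, 0.45 and 0.25. Itgb2 and Vsig4 were named after their values were seen. Itgb2, the shared beta chain of complement receptors 3 and 4, had a difference of 0.66 on the log2 scale (limma adjusted p = 0.762), while the alpha chains Itgam and Itgax had 0.25 and 0.32. Vsig4, a receptor for C3 fragments on resident macrophages, read 107, 70.5 and 117 in the Trex1 KO animals A, B and C, against 226, 188 and 120 in the Trex1 WT animals A, B and C. Its groups did not overlap, but the littermates of pair C differed by only -0.03 (log2 difference -0.75 over all animals, limma adjusted p = 0.867).

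**Figure D4:**
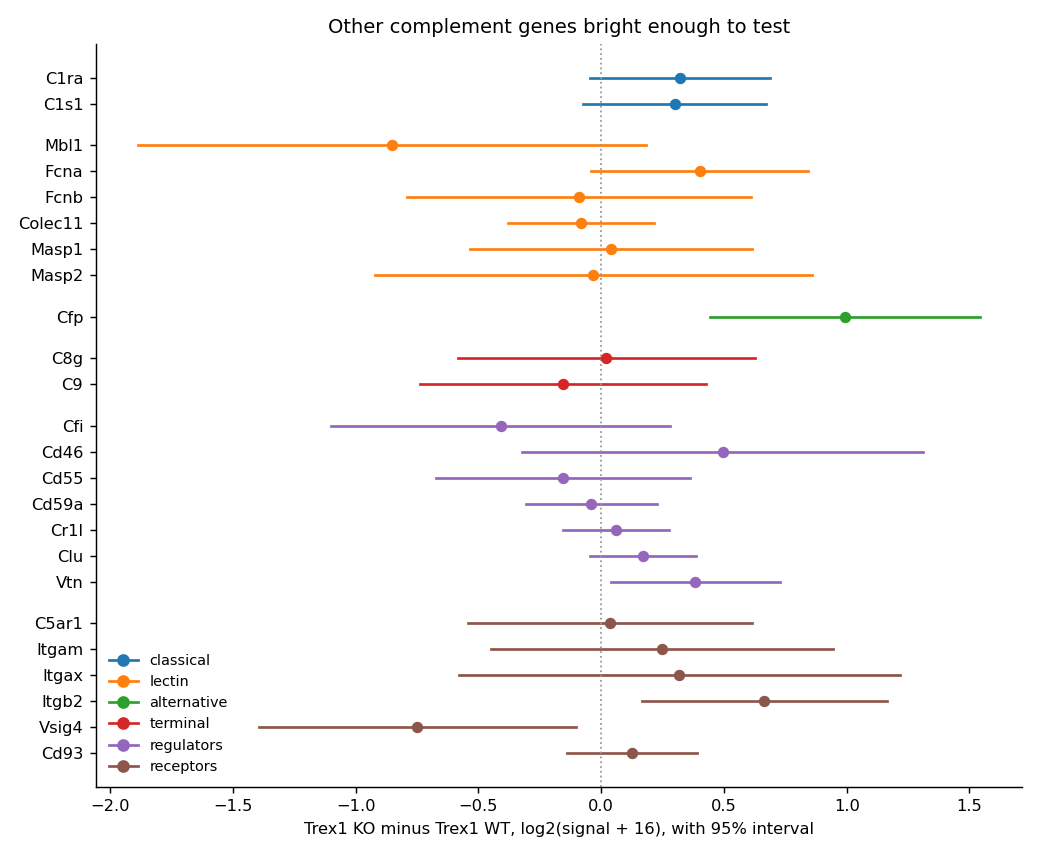
Trex1 KO minus Trex1 WT difference (log2(signal + 16), points) with its 95% interval (lines) for the 24 other complement genes that were bright enough to test, grouped and coloured by role. The points run from -0.85 (Mbl1) to 0.99 (Cfp), and 20 of the 24 intervals include 0.

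Complement made by liver or fat was looked for through markers of those cells. Of 6 hepatocyte markers 5 had a probe set, and their summed signal was 278 to 875 in Trex1 KO and 171 to 2160 in Trex1 WT, with the means of Apoa1 and Fgb at or below the highest bacterial control. Apoa1 was above that control in Trex1 KO B, at 78.0, and in Trex1 WT B, at 114. The highest sum, 2160, was that of Trex1 WT B, and most of it was Ttr, at 1483, and Alb, at 477, while Fgb read 4.47. Trex1 WT B was also the highest wild type for C2, Serping1 and the C1q chains, but not for Cfb or C4a/C4b. The part of liver transcripts in the complement values was not tested. The adipocyte marker Adipoq averaged 226 in Trex1 KO and 29.3 in Trex1 WT, but only Trex1 KO C, at 549, was above the bacterial controls (log2 difference 1.77, limma adjusted p = 0.823). The other 2 adipocyte markers tested had differences of 1.16 (Retn) and 0.00 (Fabp4), and Lep and Cidec were at background. The summed signal of the list was 30566 to 35127 in Trex1 KO and 29070 to 36715 in Trex1 WT. Nearly all of it was Fabp4, which averaged 32887 in Trex1 KO and 32968 in Trex1 WT, so the sum does not show the other markers. The part of adipose tissue in the complement values was not tested. The 8 fibroblast markers had summed signals of 48088 to 53182 in Trex1 KO and 42923 to 55557 in Trex1 WT, a median log2 difference of 0.08, and 0 passed in limma (0 at an unadjusted p under 0.05).

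The genes whose levels most resembled Cfb over the 6 arrays were Mx2, Slfn4, Nrp, Ddx60 and Arhgef2, by Pearson's r of log2 values. In that order r was 0.990, 0.988, 0.988, 0.987 and 0.986. They describe 6 arrays in 2 groups, so any gene that separates the genotypes scores high. Mx2, an antiviral GTPase, Slfn4, of the Schlafen family, and Ddx60, a helicase, rose in Trex1 KO by 2.15, 3.59 and 1.56 on the log2 scale (adjusted p in limma 0.0306, 1.82e-04 and 0.0147). Nrp had a difference of 0.38 and Arhgef2 of 0.31, neither past the threshold (adjusted p in limma 0.955 and 0.918). The same r was 0.860 for C1qa, 0.803 for C2, 0.664 for Serping1, 0.65 for C1qb, 0.50 for C1qc and 0.145 for C3ar1. Among 12810 genes C1qa was in place 216 and C2 in place 368.

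**Figure D5:**
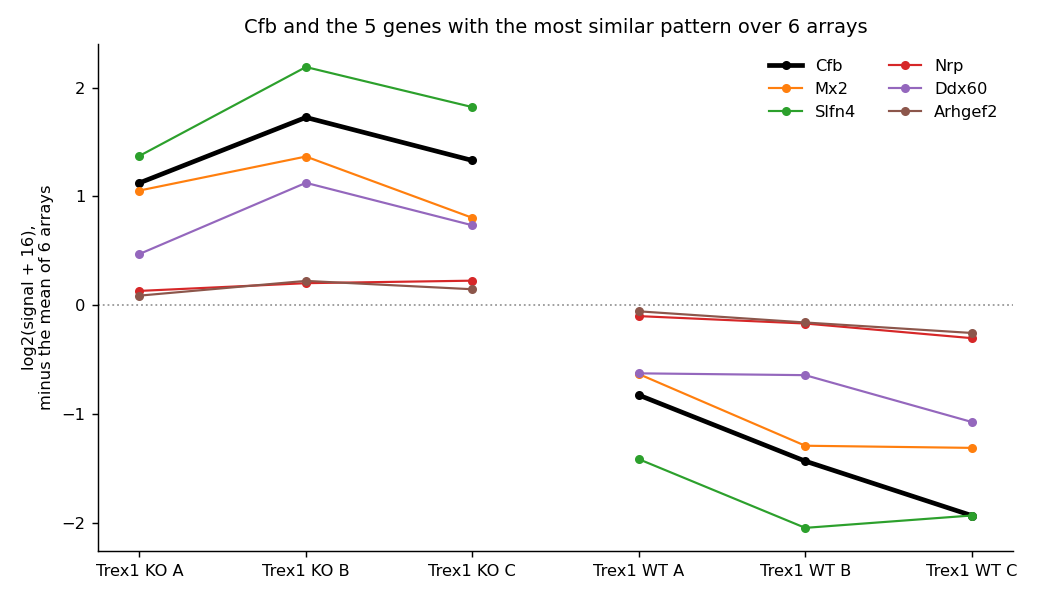
Levels of Cfb (black) and of the 5 genes with the highest Pearson r to it, as log2(signal + 16) minus each gene's mean over the 6 arrays, with the Trex1 KO animals left and the Trex1 WT animals right and lines that only guide the eye. Slfn4 differs by 3.59 between the genotypes and Arhgef2 by 0.31, although both have r of 0.986 or more with Cfb.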

How the data were processed

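Heart ventricle RNA of 6 mice was measured on 1-colour arrays, 1 per animal. Each deposited file gives 1 intensity per probe set, which the authors computed with MAS5 according to the submitters' processing notes; the sources used here give no version or settings. The 2% trimmed mean of each array was 500.0, so no further scaling was done. Values were transformed to log2(signal + 16), and the 27022 probe sets at or above the 40th percentile of the mean entered limma 3.58.1 under R 4.3.3 (lmFit, eBayes with trend, two-sided, Benjamini-Hochberg over all, threshold 0.05, 95% intervals unadjusted). The script was tested on simulated data.

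Groups come from the sample titles and litters from the design text. Deviations from group means correlated at 0.151, 0.192 and 0.147 within litters and at -0.161 to 0.0101 otherwise, across probe sets. The litter as a block was an alternative. Other alternatives were the pseudocount, the filter, quantile normalization, the trend, the Actb ratio, the mean of probe sets, and leaving out animals or pairs. The brightest probe set with a single symbol stood for a gene; C4a/C4b was the exception. The p-values measure the spread between 6 animals, whose number limits the precision.

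The members and lists were chosen with earlier results of these data known. Named genes were the 9 members, other complement genes past the threshold or brightest in their role, the 5 most like Cfb, and Trex1. C1ra, Cfi, Cd46, Cd55, Cd59a, Cr1l, Itgam, Itgax, Mbl1 and the markers named singly were chosen outside this rule, with their values seen. Of 8 interferon-induced comparison genes on the list, 6 had a probe set of their own, and all 6 were higher. Of 6 endothelial, 4 monocyte and neutrophil and 1 lymphocyte marker tested, 0 passed. Promoter sequences are RefSeq's; the array files name no genome build.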

Additional observations from a re-analysis of the deposited data

How the results depend on the processing

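The log2 difference of Cfb was positive under all 18 alternatives, between 2.33 and 3.24, and its limma call was kept under 17. It was lost with the Actb 3′ to 5′ ratio as a covariate (3.24, limma adjusted p = 0.0962), where 0 member genes passed. The SE of Cfb was 0.49 in that fit and 0.28 in the main fit, and the ratio itself differed by genotype. The cause of the lost call was not tested. With littermate pairs as a replicate block the Cfb difference was 2.79 (limma adjusted p = 0.00186), and the block changed no call among the complement genes. Leaving out single animals gave 1 to 2 member genes higher, C2 being the added one without Trex1 WT B. Differences of C2, C4a/C4b, Serping1 and the C1q chains kept their sign under all 18 alternatives. Their sizes moved by over 1.5 times with the Actb ratio in the model, to 1.68 for C2, 1.89 for C4a/C4b, 0.74 for Serping1, 0.81 for C1qa, 0.65 for C1qb and 0.57 for C1qc, none of which passed. C3ar1, at 0.00, changed sign without passing: 1e-04 with a pseudocount of 1, 0.38 with the Actb ratio, 0.24 as the mean of its probe sets, 0.0799 without pair A, 0.0717 without pair B, and -0.12 to 0.11 when single animals were left out. No other complement gene passed under any alternative run. Signals near the bacterial controls, such as Cfb in Trex1 WT C, limit the size of folds.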
